A study of Mus musculus with 6 samples.

Results

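Interferon-stimulated genes are the genes that cells switch on when an interferon reaches its receptor, and their products restrict viruses, sense foreign nucleic acid and tune the response itself. The 37 genes described here were taken by gene symbol from a list of known interferon-induced genes, which was drawn up with earlier results of these data known, and all 37 were found among the 23951 genes of the expression table. Whole skin was profiled by RNA sequencing in 3 JunBΔep mice and 3 control mice. The study describes the JunBΔep skin as lesional, so genotype and lesion cannot be told apart in this comparison. JunBΔep (labelled JunB dep) mice come from a floxed Junb line (B6.129P2-Junbtm3Wag/J) bred with a K5-Cre line, so the gene is deleted in K5-expressing cells such as basal keratinocytes, and the deletion is not directed at the other cells of the skin. The controls are labelled JunB +/+, and whether they carry Cre or a floxed allele is not given in the labels or the methods. All 6 mice are C57Bl/6, 6 to 7 months old. Libraries were poly(A)-selected and kept strand information, and they are named here by their replicate numbers 0, 1 and 2. Values are FPKM as deposited, that is fragments scaled to transcript length in kilobases and to 1000000 mapped fragments, so levels of different genes can be set side by side per length.

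As background, type I interferons act through a receptor made of IFNAR1 and IFNAR2, type II interferon through IFNGR1 and IFNGR2, and type III interferons through IFNLR1 and IL10RB. Type I and type III signals activate STAT2, which acts with IRF9 in a complex that binds the interferon-stimulated response element in the promoters of target genes. Type II signals act mainly through another promoter element, the gamma-activated site. Keratinocytes and resident immune cells of the skin can both make and answer interferons, and in inflamed skin the level of these target genes is a common readout of interferon exposure.

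RefSeq promoter windows, running from 250 bases before to 50 bases after the start of a gene, were matched by symbol for 26 of the 37 genes; Usp18, Oas2, Mx1, Mx2, Gbp6, Dhx58, Zbp1, Parp9, Parp14, Rtp4 and Ifi27l2a were not matched. The letters GAAANNGAAA, or TTTCNNTTTC on the other strand, overlapping matches included, occurred in the windows of 12 of the 26 genes, or 46.2%. The same letters occurred in 3.99% of all 27025 genes with a window of that length, or 3.44% of all 32851 windows. The gamma-activated letters TTCNNNGAA, which read the same on both strands, occurred in 5 of the 26 genes, or 19.2%, and in 9.55% of all genes with a window, or 8.3% of all windows. The response element letters were found for Isg15, Ifit1, Ifit3, Oas1a, Oas3, Gbp2, Gbp3, Rsad2, Bst2 and Stat2 before the start, and for Ddx58 and Ifih1 after it. The gamma-activated letters were found for Ifit2, Oas1a, Bst2, Irf1 and Ifi35, so Oas1a and Bst2 held both.

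Stretches of 160 bases ending at the base before the RefSeq start are shown for 5 genes from 4 of the families described, as examples of windows that hold the response element letters. Each was placed by a single exact match on the mm9 build and is written 5′ to 3′ on the strand of its gene, with the GAAA or TTTC letters of each match in capitals. They are Isg15 at chr4:155574928-155575087 on the minus strand, Ifit1 at chr19:34715219-34715378 on the plus strand, Ifit3 at chr19:34657859-34658018 on the plus strand, Oas1a at chr5:121357535-121357694 on the minus strand and Rsad2 at chr12:27141318-27141477 on the minus strand.
Isg15: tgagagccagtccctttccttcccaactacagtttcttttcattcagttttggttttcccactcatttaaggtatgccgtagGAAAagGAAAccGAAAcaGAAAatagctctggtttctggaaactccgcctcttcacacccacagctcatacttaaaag
Ifit1: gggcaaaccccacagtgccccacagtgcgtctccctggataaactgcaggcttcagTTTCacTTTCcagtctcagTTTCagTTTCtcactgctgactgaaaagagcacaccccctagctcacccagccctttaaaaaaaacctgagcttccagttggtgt
Ifit3: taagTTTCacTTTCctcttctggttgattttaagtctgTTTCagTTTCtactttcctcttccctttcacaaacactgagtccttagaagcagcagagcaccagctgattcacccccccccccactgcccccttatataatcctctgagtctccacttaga
Oas1a: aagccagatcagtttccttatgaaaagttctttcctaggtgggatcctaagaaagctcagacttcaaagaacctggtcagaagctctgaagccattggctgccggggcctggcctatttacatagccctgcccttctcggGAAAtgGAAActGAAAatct
Rsad2: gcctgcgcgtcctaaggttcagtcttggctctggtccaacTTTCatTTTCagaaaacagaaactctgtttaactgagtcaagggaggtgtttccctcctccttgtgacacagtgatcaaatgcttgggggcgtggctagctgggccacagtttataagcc
In Isg15 and Oas1a 3 or more GAAA units follow each other in a single run, in Ifit1 and Ifit3 the element occurs at 2 separate places, and in Rsad2 it occurs once. A match is a description of the letters only.

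Junb was measured first as a check of the labels. It lies at chr8:87500811-87502617 on mm9 and stood at 59.3, 72.4 and 56.9 FPKM in control replicates 0, 1 and 2. The libraries labelled JunBΔep held 129.6, 42.8 and 28.0 FPKM in replicates 0, 1 and 2. Replicates 1 and 2 were below every control, while the library labelled JunBΔep replicate 0 was above every control, so log2 fold changes that turn on that library are also given without it. Other values set that library apart as well. Its mucosal epithelium markers (5 genes, such as Krt13) summed to 3798 FPKM against 0.394 to 1.41 FPKM in the other 5 mice, and its adipocyte markers (5 genes) to 66.4 FPKM against 1717 to 13499.6. S100a8 was at 24456 FPKM there, while the other 5 neutrophil markers summed to 521 FPKM, against 743 FPKM in control replicate 0 and 12.2 to 78.9 FPKM in the other 4 mice, and S100a9 was listed at 0. Krt14 was also listed at 0 there beside Krt5 at 3725 FPKM. The labels give the tissue only as skin, with no body site, so a difference in the place or layers sampled and an effect of genotype cannot be told apart in this library. Control replicate 0 held liver markers (6 genes) at 1693 FPKM against 0.922 to 29.6 FPKM elsewhere. Epidermal keratinocyte markers (8 genes) were present in all 6 libraries, at 7093 to 12765 FPKM. Skeletal muscle markers (8 genes) were at 14362 to 18402 FPKM in the control mice against 1382 to 3346 in JunBΔep mice. This muscle difference holds in every JunBΔep mouse, so leaving out replicate 0 does not remove it from the comparison. Whether it comes from the layers sampled or from genotype was not tested.

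All 37 interferon-stimulated genes were detected in every mouse, mostly at low to moderate levels. Over the 6 mice, 3 of them averaged under 1 FPKM (Ifi44, Mx2 and Oas3), 25 between 1 and 10 FPKM, 8 between 10 and 100 FPKM, and Ifi27l2a alone above 100 FPKM. The lowest value of any of them was 0.223 FPKM, for Ifi44 in JunBΔep replicate 0. After Ifi27l2a, at a mean of 284 FPKM, the order was led by Bst2 at 35.7, Lgals3bp at 33.6, Ifi35 at 22.0, Irf9 at 18.7 and Irf1 at 18.1 FPKM, and each of these neighbours overlapped with the next over the 6 mice.

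**Figure D1:**
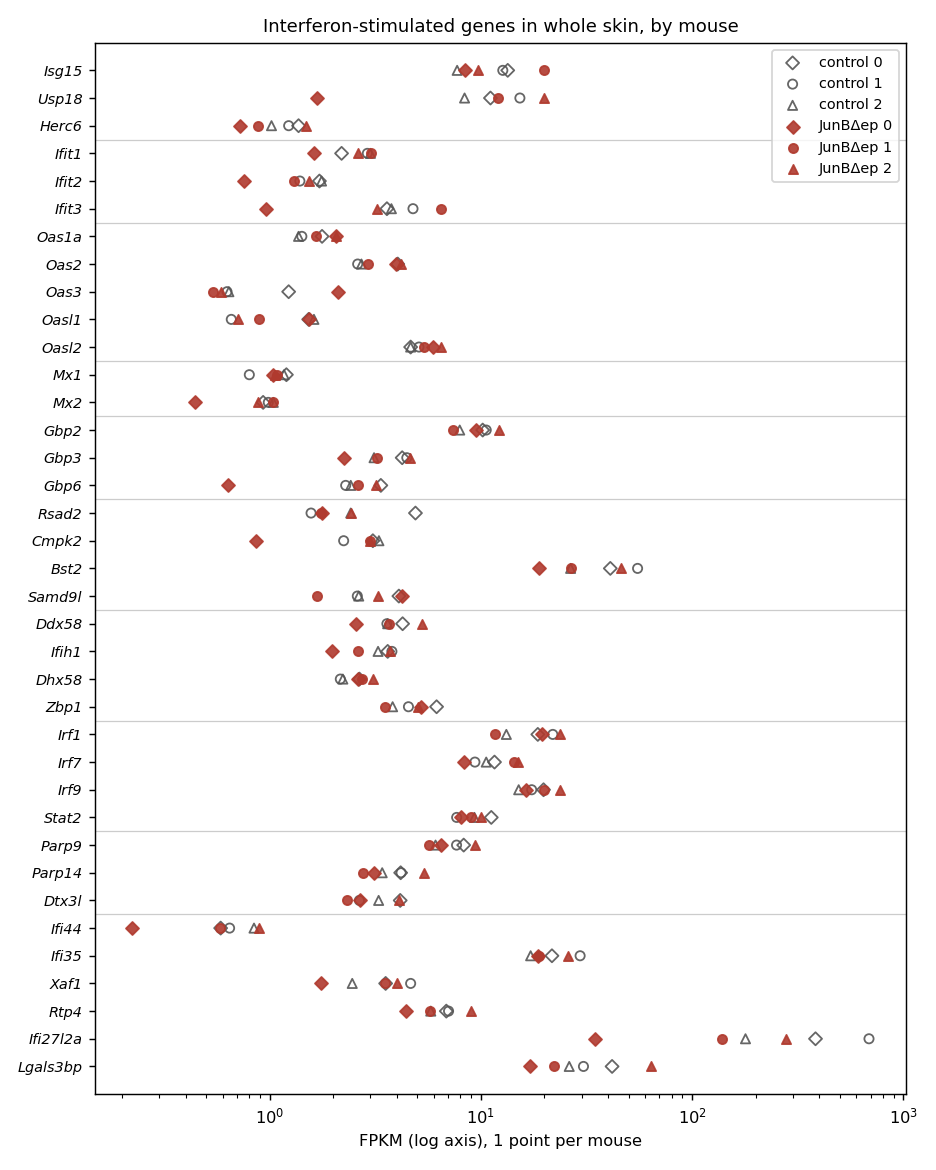
Level of the 37 interferon-stimulated genes in each mouse, in FPKM on a log axis, with genes in rows grouped by role, open grey symbols for the 3 control mice and filled red symbols for the 3 JunBΔep mice. Red and grey symbols intermix in every row but that of Oasl2, and the red diamond of JunBΔep replicate 0 is the lowest point of 18 rows; it was lowest in 32% of all tested genes.

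No interferon-stimulated gene passed the test between JunBΔep and control skin, and the groups overlapped in 36 of the 37. The values were compared as log2(FPKM + 0.5) with limma over the 17021 genes that averaged 0.1 FPKM or more, a scale that understates changes of low genes, and all 37 passed that filter. At a Benjamini-Hochberg adjusted p below 0.05 none of the 37 was higher, against 0% of all tested genes, and none was lower, against 1.38% (235 genes). The count of 235 became 125 without JunBΔep replicate 0, 254 without JunBΔep replicate 2, and 0 when any of the other 4 mice was left out. It was also 0 when either replicate numbers or title number series entered as a block, so the share of 1.38% rests on the fit without a block. By the sample titles, control replicates 0 and 1 share a number series with JunBΔep replicate 0. Control replicate 2 shares the other series with JunBΔep replicates 1 and 2. Series and genotype are thus unbalanced, and JunBΔep replicate 0 is the only JunBΔep mouse of its series. At an unadjusted p below 0.05, again 0 of the 37 passed, against 7.56% of all tested genes. The lowest adjusted p among them was 0.72. Counting genes whose mice did not overlap between the groups, 1 of the 37 lay higher in all JunBΔep mice, against 5.62% of all tested genes, and 0 lay lower, against 9.16%. For a single gene in a design of this size, the smallest p that an exact permutation test can reach is 0.1, two-sided.

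Most fitted differences were small. Of the 37 log2 fold changes (JunBΔep minus control), 10 were positive and 27 negative, with a median of -0.10, against 0.03 over all tested genes, and a range from -1.70 for Ifi27l2a to 0.27 for Oasl2. The absolute log2 fold change was below 0.5 in 35 of the 37 genes (94.6%), against 73.6% of all tested genes; Ifi27l2a and Usp18 were the exceptions. The design bounded the difference only loosely: the median of the 95% interval reached 0.69 to each side, against 0.67 over all tested genes, and the interval lay wholly within a log2 change of 1 in either direction for 25 of the 37 (67.6%), against 51.7%. In the other 12 genes the interval also held larger changes. Without control replicate 0, the mouse with the liver markers, the median log2 fold change of the 37 was -0.00. Without JunBΔep replicate 0, 19 of the 37 were positive and 18 negative, and the median was 0.02, with a range from -0.87 to 0.46. In that fit none of the 37 was called, against 0.798% of tested genes, and 1 of the 37, Irf7, had an unadjusted p below 0.05, against 8.07%.

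**Figure D2:**
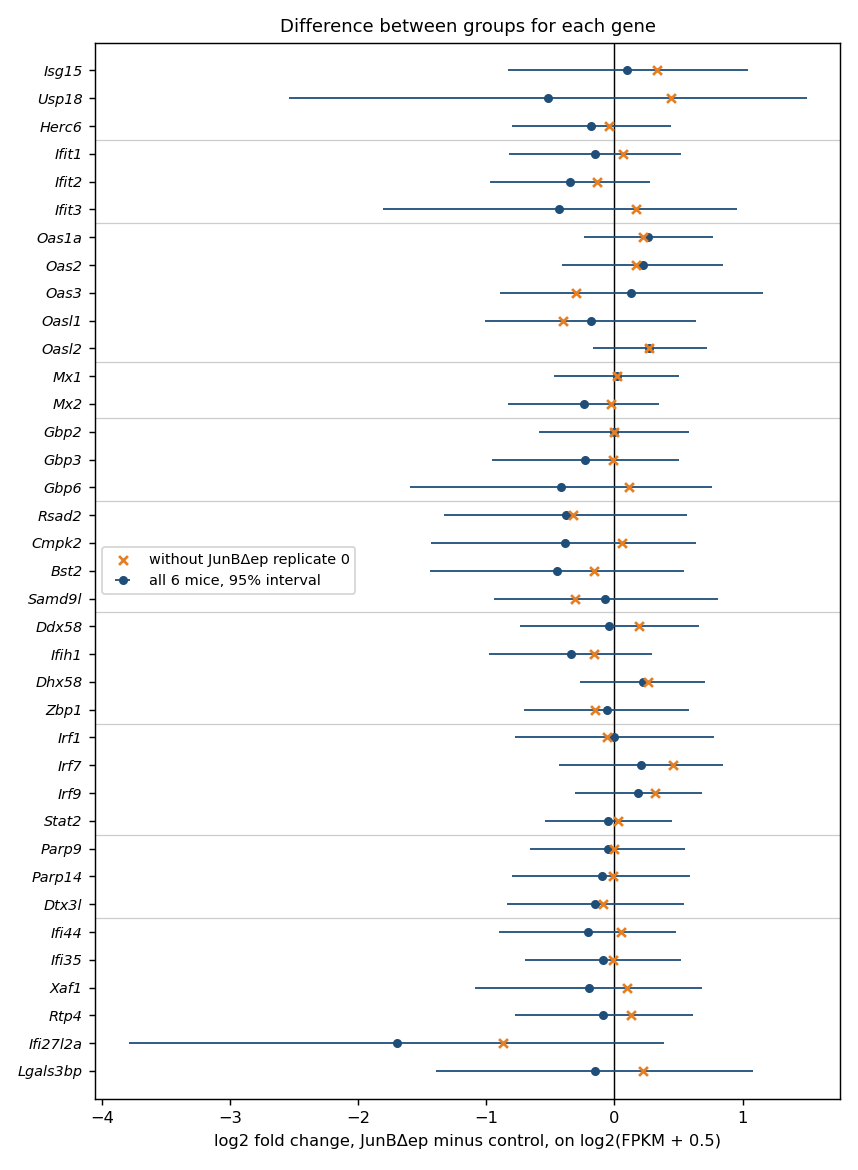
Log2 fold change of each interferon-stimulated gene, JunBΔep minus control, on the log2(FPKM + 0.5) scale, with circles and bars for the estimate and 95% interval from all 6 mice and crosses for the estimate without JunBΔep replicate 0. Every bar crosses 0; the estimates run from -1.70 for Ifi27l2a to 0.27 for Oasl2.

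The JunBΔep mice differed among themselves. Against the control mean, the median of the 37 genes was 0.14, 0.00 and -0.15 in control replicates 0, 1 and 2, and -0.36, -0.17 and 0.22 in JunBΔep replicates 0, 1 and 2. The JunBΔep mice held both the lowest and the highest median of the 6. JunBΔep replicate 0 was below all 3 controls in 19 of the 37 genes, against 39.3% of all tested genes, and above them in 4, against 37.4%. JunBΔep replicate 1 was below all controls in 15, against 33.1%, and above in 8, against 34.5%. JunBΔep replicate 2 was below all controls in 3, against 21.3%, and above in 17, against 25.1%. JunBΔep replicate 2 was the highest of the 6 mice in 17 of the 37 genes, against 14% of all tested genes, and the lowest in none. Over the 6 mice, the highest value was less than 2 times the lowest in 16 of the 37 genes, and in 26 of the 37 without JunBΔep replicate 0.

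**Figure D3:**
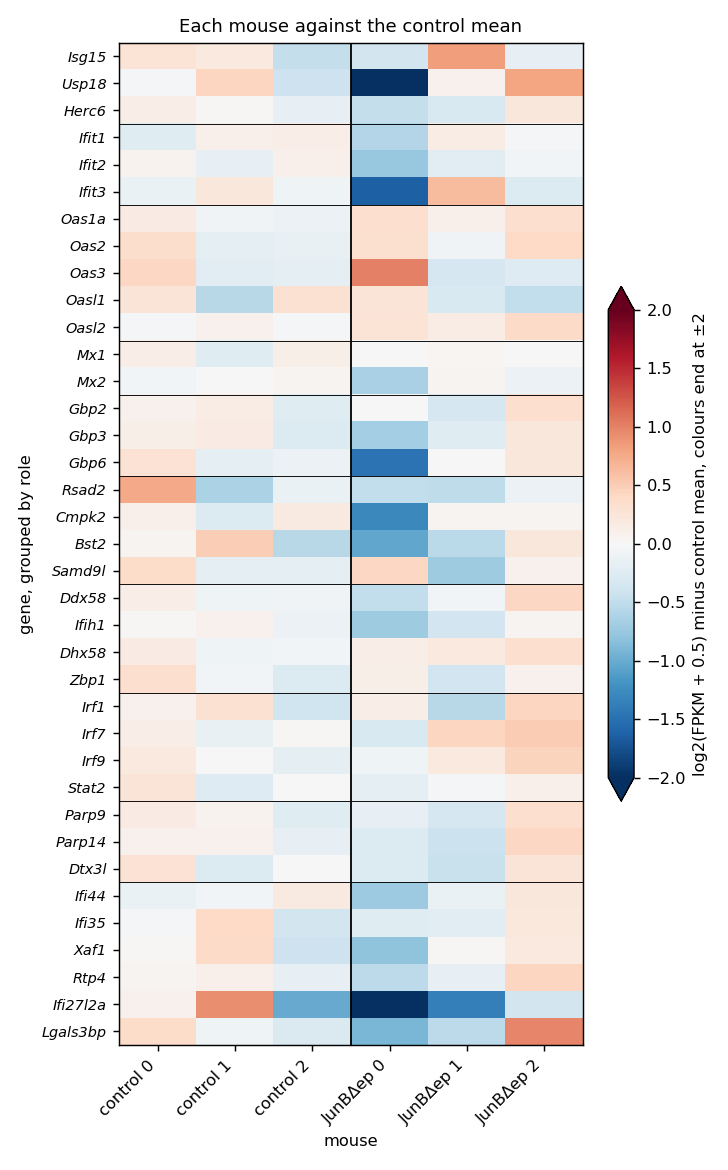
Level of the 37 genes in each mouse relative to the control mean, on the log2(FPKM + 0.5) scale, with 1 column per mouse and genes in rows grouped by role; blue is below and red above the control mean, and the colours end at ±2. JunBΔep replicate 0 is mostly blue and JunBΔep replicate 2 mostly red, with medians of -0.36 and 0.22.

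Values of other cell types moved between the same mice. The summed level of 5 adipocyte markers was 2681, 5386 and 1717 FPKM in the control mice against 66.4, 2662 and 13499.6 in JunBΔep replicates 0, 1 and 2. For 5 endothelial markers it was 66, 66.4 and 47.1 FPKM against 52.7, 27.4 and 105. Both sums were highest in JunBΔep replicate 2, which also had the highest median of the interferon-stimulated genes. The adipocyte sum was lowest in JunBΔep replicate 0 and the endothelial sum in JunBΔep replicate 1. The summed level of 6 general leukocyte markers was 116 to 205 FPKM in the control mice against 357, 62.0 and 129.6 in JunBΔep replicates 0, 1 and 2. For 8 macrophage and monocyte markers it was 64.0 to 136 FPKM in the control mice against 294, 31.2 and 80.1 in JunBΔep mice. Cd14 made up 169.6 FPKM of the 294, and the other 7 of these markers summed to 126, 58.5 and 69.3 FPKM in controls and to 124, 28.3 and 62.3 in the JunBΔep replicates. The mouse with the highest sum of general leukocyte markers, JunBΔep replicate 0, also had the lowest median of the interferon-stimulated genes. The controls ran the other way. In their replicates 0, 1 and 2 the leukocyte medians against the control mean were 0.45, -0.15 and -0.26. Those of the interferon-stimulated genes were 0.14, 0.00 and -0.15. In JunBΔep replicates 1 and 2 the leukocyte medians were -1.33 and -0.30, with -0.17 and 0.22 for the interferon-stimulated genes. Plasmacytoid dendritic cells, which are specialised makers of type I interferon, were followed by 6 markers that summed to 20.3 to 22.0 FPKM in the control mice against 16.1 to 24.7 in JunBΔep mice. Of these, Siglech stood at 1.40, 0.824 and 0.988 FPKM in the control mice against 0.140, 0.151 and 0.528 in JunBΔep mice, so that 1 of the 6 markers was lower in all JunBΔep mice, against 9.16% of all tested genes. Irf7, which is also one of the 37 genes, and Tcf4 made up most of the sum, and the remaining 3 markers, Ccr9, Runx2 and Spib, summed to 1.54, 1.53 and 2.10 FPKM in controls and to 2.29, 1.98 and 1.33 in the JunBΔep replicates, where the groups overlapped. The part of these cell types in the results was not tested, and in bulk skin fewer cells of a type and less RNA per cell cannot be told apart.

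Members of the ISG15 system gave a mixed picture. Isg15, the ubiquitin-like protein that is attached to other proteins after interferon, stood at 13.4, 12.7 and 7.72 FPKM in the control mice against 8.40, 19.9 and 9.73 in JunBΔep mice (log2 fold change 0.10, SE 0.38, and 0.33 without JunBΔep replicate 0). The groups overlapped, with the highest value in JunBΔep replicate 1 and the lowest in control replicate 2. Usp18, at chr6:121195924-121220934, encodes the protease that removes ISG15 and restrains type I receptor signalling. It stood at 11.1, 15.3 and 8.37 FPKM in the control mice against 1.68, 12.0 and 19.9 in JunBΔep mice, so JunBΔep mice held both its lowest and its highest value, 11.8-fold apart. Its log2 fold change was -0.52 (95% interval -2.54 to 1.5) with all mice and 0.44 without JunBΔep replicate 0. Herc6, the ligase that attaches ISG15 in mice, ranged from 0.724 to 1.49 FPKM and had a log2 fold change of -0.18, or -0.04 without that mouse.

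The 3 IFIT genes, whose products bind viral RNA and hold back its translation, lie side by side on chromosome 19 and were all lowest in JunBΔep replicate 0. Ifit3, at chr19:34658021-34663221, stood at 3.59, 4.77 and 3.77 FPKM in the control mice against 0.962, 6.47 and 3.22 in JunBΔep mice. The lowest and the highest value were both in JunBΔep mice and 6.72-fold apart, and the log2 fold change was -0.43 (SE 0.57). Ifit1 ranged from 1.62 to 3.03 FPKM and Ifit2 from 0.753 to 1.76 FPKM, with log2 fold changes of -0.15 and -0.35. Without JunBΔep replicate 0 the log2 fold changes of Ifit1, Ifit2 and Ifit3 were 0.07, -0.14 and 0.17. In Ifit3, 51.5% of the stretches of 50 bases also occur in its copy I830012O16Rik, so its reads could be split between both.

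In the oligoadenylate synthetase family, which senses double-stranded RNA and activates RNase L, 4 of 5 log2 fold changes were positive, or 3 of 5 without JunBΔep replicate 0. Oasl2, at chr5:115346943-115362243, was the only one of the 37 genes whose groups did not overlap, standing at 4.65, 5.09 and 4.65 FPKM in the control mice against 5.92, 5.35 and 6.45 in JunBΔep mice. Each JunBΔep mouse was above each control, by little: the log2 fold change was 0.27 (SE 0.18, 95% interval -0.17 to 0.72), and limma gave an adjusted p of 0.722. Oas1a ranged from 1.37 to 2.05 FPKM and Oas2 from 2.61 to 4.20 FPKM, with log2 fold changes of 0.26 and 0.22. Oas3 stood at 2.11 FPKM in JunBΔep replicate 0 and at 0.538 to 1.23 FPKM in the other mice, and its log2 fold change of 0.13 became -0.30 without that mouse. Oasl1, a regulator of Irf7 translation, ranged from 0.658 to 1.62 FPKM with a log2 fold change of -0.18, or -0.40 without that mouse. In Oas1a, 53% of the stretches of 50 bases in its transcripts also occur in the neighbouring Oas1g or Oas1b, so its value may hold reads of those copies.

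The GTPases overlapped between the groups in every case. Mx1, whose allele in the C57Bl/6 background encodes no full-length protein, stood at 1.20, 0.801 and 1.17 FPKM in the control mice against 1.04, 1.08 and 1.06 in JunBΔep mice, and its log2 fold change was 0.02 (95% interval -0.47 to 0.50). Mx2 was at 0.444 FPKM in JunBΔep replicate 0 and at 0.878 to 1.04 FPKM in the other mice. Of the guanylate-binding proteins, which attack the compartments of intracellular microbes, Gbp2 stood at 10.2, 10.6 and 7.94 FPKM in the control mice against 9.44, 7.37 and 12.2 in JunBΔep mice. Its 95% interval ran from -0.59 to 0.58. Gbp3 ranged from 2.26 to 4.63 FPKM, with a log2 fold change of -0.23, or -0.01 without JunBΔep replicate 0. Gbp6 was at 0.637 FPKM in JunBΔep replicate 0 and at 2.29 to 3.36 FPKM in the other 5 mice, but 80.0% of the stretches of 50 bases in its transcripts are shared with Gbp10, Gbp4 and other copies.

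All 4 of the other antiviral effectors had negative log2 fold changes with all mice, and 3 of the 4 without JunBΔep replicate 0. Bst2, or tetherin, which holds budding virus at the cell surface, stood at 41.0, 55.2 and 26.6 FPKM in the control mice against 18.9, 26.7 and 46.1 in JunBΔep mice. Its log2 fold change was -0.45 (SE 0.40), and -0.16 without JunBΔep replicate 0. Rsad2, or viperin, reached 4.90 FPKM in control replicate 0 and 1.57 to 2.44 FPKM in the other mice. Its neighbour Cmpk2, a mitochondrial nucleotide kinase, was at 0.862 FPKM in JunBΔep replicate 0 and at 2.24 to 3.29 FPKM in the other mice, and its log2 fold change of -0.39 became 0.06 without that mouse. The outlying mouse was thus a different one for each gene of the pair. Samd9l, a growth and virus restriction factor, ranged from 1.68 to 4.25 FPKM and had its highest value in JunBΔep replicate 0.

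The nucleic acid sensors had 95% intervals within a log2 change of 1 in all 4 cases. Zbp1, a sensor of Z-form nucleic acid that can start cell death, stood at 6.17, 4.54 and 3.82 FPKM in the control mice against 5.23, 3.51 and 5.06 in JunBΔep mice (log2 fold change -0.06, SE 0.26, and -0.15 without JunBΔep replicate 0). The groups overlapped throughout. Ddx58 (RIG-I) ranged from 2.56 to 5.28 FPKM, Ifih1 (MDA5) from 1.98 to 3.79 FPKM and Dhx58 (LGP2) from 2.16 to 3.08 FPKM, with log2 fold changes of -0.04, -0.34 and 0.22. Without JunBΔep replicate 0 these were 0.19, -0.16 and 0.26.

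The transcription factors of the pathway were also bounded within a log2 change of 1. Irf9, the DNA-binding subunit of the complex with STAT2, stood at 19.8, 17.4 and 15.1 FPKM in the control mice against 16.3, 19.9 and 23.8 in JunBΔep mice (log2 fold change 0.18, SE 0.20, and 0.32 without JunBΔep replicate 0). Stat2 ranged from 7.68 to 11.2 FPKM, with a log2 fold change of -0.05, or 0.03 without that mouse. Irf7, which drives the interferon-alpha genes, stood at 11.6, 9.37 and 10.6 FPKM in the control mice against 8.34, 14.3 and 15.0 in JunBΔep mice. JunBΔep replicates 1 and 2 were above every control and replicate 0 below every control. With all mice its log2 fold change was 0.21 (adjusted p = 0.795 by limma), and without JunBΔep replicate 0 it was 0.46 (unadjusted p = 0.0312 and adjusted p = 0.518 by limma). Irf1, a factor induced above all by type II interferon, ranged from 11.7 to 23.8 FPKM with a 95% interval from -0.78 to 0.78.

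The ADP-ribosyltransferase genes Parp9 and Parp14 and the ubiquitin ligase gene Dtx3l, partner of Parp9, lie together on chromosome 16 and overlapped between the groups. Parp9 stood at 8.29, 7.67 and 6.10 FPKM in the control mice against 6.50, 5.68 and 9.33 in JunBΔep mice. Parp14 ranged from 2.77 to 5.36 FPKM and Dtx3l from 2.32 to 4.15 FPKM. All 3 were lowest in JunBΔep replicate 1, and their log2 fold changes lay between -0.15 and -0.05, and between -0.09 and -0.00 without JunBΔep replicate 0.

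The most abundant and most variable gene was Ifi27l2a, which encodes a small hydrophobic protein, at chr12:104680377-104681890. It stood at 384, 688 and 179 FPKM in the control mice against 34.8, 139 and 279.7 in JunBΔep mice, 19.8-fold between the lowest and the highest. JunBΔep replicates 0 and 1 were below every control, while replicate 2 was above control replicate 2. The log2 fold change was -1.70 (SE 0.86, 95% interval -3.79 to 0.39), with an adjusted p of 0.72 by limma, and -0.87 without JunBΔep replicate 0. It made up 15.6% to 70.6% of the summed FPKM of the 37 genes in a mouse. With it the sums were 672, 975 and 392 FPKM in the control mice against 223, 372 and 621 in JunBΔep mice. Without it they were 289, 287 and 214 FPKM in the control mice against 188, 233 and 341 in JunBΔep mice. In its transcripts 40.8% of the stretches of 50 bases also occur in Ifi27l2b. Of the other 5 genes of this group, Lgals3bp, a secreted galectin-binding glycoprotein, ranged from 17.0 to 64.0 FPKM. Ifi35 ranged from 17.2 to 29.5 FPKM, Xaf1 from 1.75 to 4.65, Rtp4 from 4.42 to 9.0 and Ifi44 from 0.223 to 0.887 FPKM. Their log2 fold changes lay between -0.21 and -0.09, and without JunBΔep replicate 0 those of Lgals3bp, Xaf1, Rtp4 and Ifi44 were positive, at 0.22, 0.10, 0.13 and 0.05.

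The interferons themselves were at very low levels or listed at 0. All 21 ligand genes listed were in the table, and none reached a mean of 0.1 FPKM, so none was tested. Ifng, the type II interferon, was the only one above 0 in every mouse, at 0.0501 to 0.111 FPKM. Ifnb1 was above 0 in 2 control mice, Ifnk, the keratinocyte interferon, in 4 mice and Ifnz in 5 mice. Ifna6, Ifne and Ifnl3 were above 0 only in JunBΔep replicate 1, and the other 14 genes were listed at 0 in all 6 mice. Sequencing depth is not known here, and a value of 0 carries no detection limit.

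The receptors were all expressed and none was called. Ifnar1 stood at 7.44, 5.81 and 7.33 FPKM in the control mice against 9.82, 7.25 and 7.70 in JunBΔep mice (log2 fold change 0.25, SE 0.21, and 0.12 without JunBΔep replicate 0). Ifnar2 ranged from 11.3 to 31.7 FPKM, Ifngr1 from 50.6 to 132, Ifngr2 from 21.0 to 27, Ifnlr1 from 4.44 to 7.21 and Il10rb from 12.7 to 30.4 FPKM. Of the 6 log2 fold changes, 5 were positive, with a median of 0.16, and without JunBΔep replicate 0, 4 were positive, with a median of 0.08. Among 5 signalling genes, 0 were called and the median was 0.07, or 0.01 without that mouse. Stat3, the most abundant, stood at 41.7, 40 and 37.2 FPKM in the control mice against 114, 31.5 and 50.4 in JunBΔep mice, with JunBΔep replicate 0 far above the rest.

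That mouse also stood high in lists of sensors and regulators, in contrast to its low interferon-stimulated genes. Among 12 other sensors and adaptors, 0 were called and the median log2 fold change was 0.30, or -0.07 without JunBΔep replicate 0. Myd88, the adaptor of Toll-like receptors, was at 82.1 FPKM in that mouse and at 21.3 to 30.1 FPKM in the other 5. Among 9 genes listed as negative regulators, a list that also holds the interferon-stimulated gene Isg20, 0 were called. Their median was 0.31, or -0.00 without JunBΔep replicate 0. Socs3, a feedback inhibitor of cytokine receptors, was at 115 FPKM in JunBΔep replicate 0 and at 13.2 to 32.5 FPKM in the others. Of the 12 sensors and adaptors 1, Tbk1, the kinase that activates IRF3, was higher in all JunBΔep mice than in all controls. So was 1 of the 9 genes listed as negative regulators, Adar, an RNA editing enzyme. Among all tested genes the share was 5.62%. The log2 fold changes of Tbk1 and Adar were 0.30 and 0.31, with an adjusted p of 0.722 each by limma. Without JunBΔep replicate 0 they were 0.15 and 0.26. Both genes were chosen after their values were seen. Among 6 other IRF factors, 0 were called and the median was 0.02, or 0.09 without JunBΔep replicate 0. In the fit without that mouse 1 of the 6, Irf8, a factor of myeloid and dendritic cells, had an unadjusted p below 0.05, against 8.07% of tested genes. Its log2 fold change was -0.70 with all mice and -0.98 without that mouse (unadjusted p = 0.0278 and adjusted p = 0.485 by limma).

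Other interferon-induced genes were listed apart from the 37. Of 40 genes listed, 37 were tested and 0 were called, with 11 positive and 26 negative log2 fold changes and a median of -0.09. Per mouse, their median against the control mean was -0.24, -0.49 and 0.17 in JunBΔep replicates 0, 1 and 2. The most abundant, Ifitm2, an inhibitor of virus entry, was at 679 FPKM in JunBΔep replicate 0 and at 200.5 to 366 FPKM in the others. Its neighbour Ifitm1, chosen after its values were seen, was at 212 FPKM in that mouse and at 5.44 to 17.5 FPKM in the others. Ddx60, an RNA helicase also chosen after its values were seen, was lower in all JunBΔep mice than in all controls, with a log2 fold change of -0.30. It was 1 of 37 genes, against 9.16% of all tested genes.

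**Figure D4:**
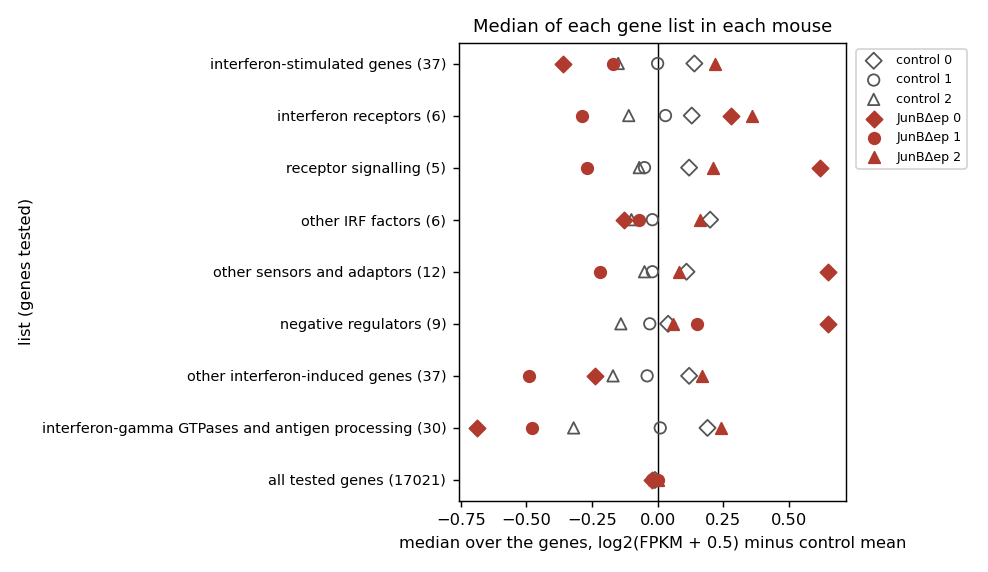
Median over the genes of each list in each mouse, on the log2(FPKM + 0.5) scale relative to the control mean, with the number of genes tested in brackets, open grey symbols for controls and filled red symbols for JunBΔep mice. In the top row the JunBΔep mice lie at -0.36, -0.17 and 0.22 on both sides of the controls, and JunBΔep replicate 0 (red diamond) is lowest there and highest among the negative regulators, at 0.65.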

How the data were processed

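Skin of 3 JunBΔep and 3 control mice was compared, grouped by the genotype in the labels. The authors checked reads with FastQC, aligned them to mm9 with TopHat 2.0.10, Bowtie 1.0.0 and SAMtools 0.1.19 through nextpresso, used the iGenomes annotation, and deposited FPKM per gene; Cufflinks is listed in the submitters' processing notes with no role. Any further scaling is not given in the labels or the methods. Read counts were not analysed here, so depth is unknown and no counting interval is given. Summed FPKM per mouse ran from 481078 to 630363, and the median-ratio factors lie between 0.986 and 0.999. 0 columns were left unused.

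From the deposited FPKM, log2(FPKM + 0.5) values were tested with limma 3.58.1 under R 4.3.3 (intensity trend, no block, two-sided) over all genes averaging 0.1 FPKM or more, with Benjamini-Hochberg adjustment over all of them. The procedure was tested on simulated data. The 37 genes and the pathway and marker lists were chosen with earlier results of these data known, and lists are described by counts and medians, with no test of a list. All 37 genes are named; full values are given for those whose groups did not overlap, those with an unadjusted p below 0.05 and the most abundant of each role, and for others that vary most between mice, chosen after their values were seen. Of the other lists, ligands, receptors, the most abundant gene and those with an unadjusted p below 0.05 may be named. Positions of genes follow GENCODE vM1 (mm9), and promoter windows from RefSeq on GRCm38.p6, placed on mm9 by exact match. Replicate numbers do not pair the mice: deviations of same-numbered mice correlated at 0.120, -0.228 and -0.426. Alternatives were a pseudocount of 0.1 or 1, the filter dropped or set at 1 FPKM, median-ratio, sum and quantile scaling, no trend, a robust trend, blocks on the replicate number and on the number series of the titles, and each mouse left out. Python 3.11.15, pandas 2.3.3 and matplotlib 3.10.9 made tables and figures.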

Additional observations from a re-analysis of the deposited data

How the results depend on the processing

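No interferon-stimulated gene was called under any of the 17 alternative settings, where the lowest adjusted p by limma was 0.237, for Ifi27l2a without JunBΔep replicate 2. Their median log2 fold change was -0.27 to 0.02 when 1 mouse was left out. It was 0.02 without JunBΔep replicate 0 and -0.00 without control replicate 0. It was -0.10 with a block on the replicate number, -0.15 with a block on the number series of the titles and -0.03 after quantile normalization, which moved the median of all genes from 0.03 to 0.07. Unadjusted p-values below 0.05 occurred in 1 of the 37 genes without JunBΔep replicate 0 and in 2, Ifi27l2a and Lgals3bp, without JunBΔep replicate 2, and in 0 otherwise. With all mice kept, the sign changed in 9 of 404 pairs of gene and setting, in 6 genes whose absolute log2 fold change was at most 0.0665; leaving out 1 mouse changed the sign in 22 of the 37. Genes called lower across the table numbered 235, and 0 with a replicate block and 0 with the block on the title series; leaving out 1 mouse gave 0 to 254 lower and 0 to 10 higher. The cause was not tested. Under the 1 FPKM filter 34 of the 37 were tested.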

Other observations

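Genes known as targets of type II interferon were also listed, and 30 of 33 were tested. Most are GTPases and antigen-processing genes, but the list also holds others, such as Cxcl9, Ido1 and Wars. None was called; 5 log2 fold changes were positive and 25 negative, with a median of -0.27. Without JunBΔep replicate 0, 9 were positive and 21 negative, with a median of -0.12. Per mouse their median against the control mean was 0.19, 0.01 and -0.32 in control replicates 0, 1 and 2 and -0.69, -0.48 and 0.24 in JunBΔep replicates 0, 1 and 2. B2m, the light chain of MHC class I and the most abundant, stood at 1554, 1900.5 and 899 FPKM in the control mice against 811, 817 and 1625 in JunBΔep mice, so that control replicate 2 stood with JunBΔep replicates 0 and 1.

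Of the 30 genes, 3 were higher in all JunBΔep mice than in all controls, against 5.62% of all tested genes, and 1, Cxcl9, had an unadjusted p below 0.05, against 7.56%. Cxcl9, a chemokine for T cells, stood at 1.47, 0.896 and 0.975 FPKM in the control mice against 2.69, 1.67 and 3.81 in JunBΔep mice; its log2 fold change was 0.96 (SE 0.32; unadjusted p = 0.0235 and adjusted p = 0.474 by limma) and 0.94 without JunBΔep replicate 0. Ido1, a tryptophan-degrading enzyme chosen after its values were seen, was at 0.0272 to 0.0592 FPKM in the control mice against 0.101, 0.337 and 2.89 FPKM in JunBΔep mice. Wars, a tryptophan transfer RNA ligase chosen in the same way, had a log2 fold change of 0.23, or 0.10 without JunBΔep replicate 0. The summed level of 7 T cell markers was 68.7 to 121 FPKM in the control mice against 71.8 to 135 in JunBΔep mice, most of it from Thy1. The other 6 markers summed to 17.1 to 40 FPKM in controls and to 14.5 to 27.9 in the JunBΔep mice, and their part in these values was not tested.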
